A study of Mus musculus with 12 samples.

Results

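Cadherins and protocadherins are calcium-dependent adhesion proteins of the cell surface. The genes described here are the protein-coding mouse genes whose symbol is Cdh followed by digits alone or starts with Pcdh. They make up 92 gene identifiers, with 91 symbols, among 53379 gene rows in each count table. RNA was measured in the external granule layer of the cerebellum, cut out of the central lobules of C57BL/6 mice at postnatal day 6 by laser capture, in a conditional knockout of SnoN (KO) and in control littermates labelled wild type (WT). SnoN is a transcriptional regulator that binds SMAD proteins and is encoded by Skil. There were 6 KO libraries, numbered 2, 3, 4, 5, 6 and 8, and 6 WT libraries, numbered 1, 2, 3, 5, 6 and 7. The submitters marked KO4 and WT2 as outliers, so the comparison used the other 5 KO and 5 WT libraries. Values of the marked libraries are given beside some of the results, and in several of these their order was the opposite. KO2 is knockout by its title while its genotype tag says wild type. Which promoter drives the recombinase is not given in the sources used here, nor which alleles the controls carry or whether each library came from a separate mouse, so p-values measure the spread between these libraries.

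Classical cadherins bind cadherins on neighbouring cells through extracellular repeats and hold on to the actin cytoskeleton through catenins. Type I members such as N-cadherin (Cdh2) give strong adhesion, and type II members such as cadherin-7 (Cdh7) are expressed in patterns that mark groups of neurons. Protocadherins have more extracellular repeats and different cytoplasmic tails; the delta protocadherins are single genes, whereas the alpha, beta and gamma protocadherins stand in neighbouring clusters on mouse chromosome 18, from which each neuron expresses a set that gives it an identity at its surface. In alpha and gamma genes a variable exon is joined to constant exons shared by the whole cluster, while beta genes have a single large coding exon. In the external granule layer, granule neuron precursors divide at the surface, and their daughters lose contact there, extend axons and migrate inwards.

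Of the 92 identifiers, 58 had a count in every one of the 12 libraries, 27 in some, and 7 in none. A total of 59 passed the filter on low counts and were tested, 29 of the 35 unclustered and 30 of the 57 clustered. Levels are CPM, counts per 1e+06 of a library's counts after TMM scaling, and 3 counts, taken as the lowest level that can be told from 0, stood for 0.196 to 0.371 CPM in a library. The unclustered genes with no count were Cdh16 and Cdh17, known as cadherins of kidney and intestine, and Cdh26. The clustered ones were Pcdhb1, Pcdha1, Pcdha4 and Pcdhga10. Pcdhga10 has no exonic base of its own in the annotation, and of the exonic bases of Pcdha4 only 7.004% are its own, so a count limited to reads of 1 gene could hardly reach them. Cdh3, Cdh19 and Cdh23 had a mean below 0.2 CPM in both groups and were not tested.

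Of 13442 genes tested, 3 (0.0223%) were called by edgeR's quasi-likelihood test at a Benjamini-Hochberg adjusted p under 0.05, 2 as higher in KO (0.0149%) and 1 as lower (0.00744%). Of the members, 1 was called as higher, Cdh7, and 0 as lower. Of the tested members, 43 of 59 had a positive log2 fold change of KO over WT, against 50.1% of all genes. Their median was 0.19 and that of all genes 0.0013. At an unadjusted p under 0.05, 11 members stood higher and 3 lower, where 11.8% and 9.97% of all genes were so. In 2 tested members, Cdh7 and Pcdh19, every KO library lay above every WT library, as in 1.04% of all genes, and in 0 did every KO library lie below, against 1.31%. The groups also differed in how GC-rich and GC-poor genes were counted. The median log2 fold change of all genes was 0.30 for transcripts of at most 42% GC and -0.17 above 54%, and results are therefore also given after a correction, the GC offset, that takes this dependence out library by library. Under it the unadjusted p was below 0.05 for 7 tested members higher in KO and 4 lower, where 7.52% and 8% of all genes were so, and the members' median was 0.14.

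**Figure D1:**
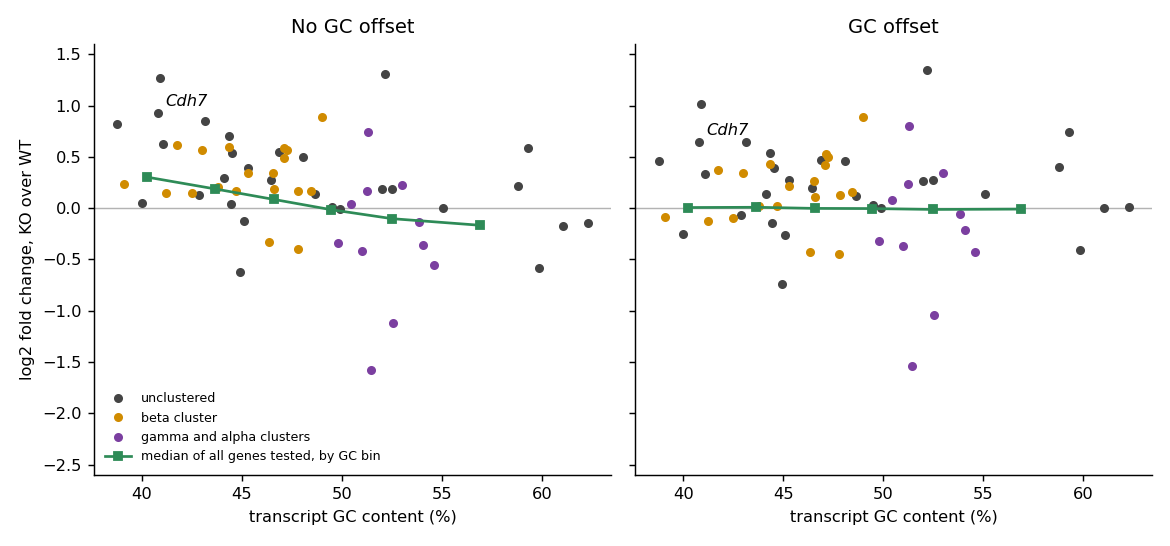
Log2 fold change of KO over WT (vertical axis) against transcript GC content in percent (horizontal axis) for the 59 tested members, without (left) and with (right) the GC offset; squares are medians of all 13442 genes in bins of GC content, drawn at the bin's median. The medians slope from 0.30 to -0.17 on the left and are near 0 on the right, and Cdh7 lies above them in both.

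Cdh7 was higher in KO layers. This type II cadherin is expressed by granule neurons and has been tied in mice to the growth of mossy fibres and their contacts with granule neurons. It lies on chromosome 1 (109982431 to 110140157, plus strand, GRCm38) and overlaps no annotated gene on the opposite strand. KO libraries 2, 3, 5, 6 and 8 had 64.0, 56.0, 37.7, 41.5 and 53.97 CPM, and WT libraries 1, 3, 5, 6 and 7 had 25.3, 31.3, 24.8, 24.1 and 27.9 CPM. All 5 KO values stood above all 5 WT values, and the KO libraries were spread more widely. The means were 50.65 ± 10.8 CPM in KO and 26.7 ± 2.96 CPM in WT (SD, n = 5 each), and the log2 fold change was 0.92 (SE 0.14, adjusted p = 0.02). A two-sided exact permutation test of log2(CPM + 1) gave p = 0.00794, the smallest that 5 against 5 libraries allow. Any gene whose groups do not overlap gets this p, so it adds nothing to the separation. Of all genes, 1.04% had every KO library above and 1.31% every KO library below.

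The marked libraries had 43.1 CPM in KO4 and 49.4 CPM in WT2, so WT2 stood among the KO libraries. With them included the log2 fold change was 0.70 and the adjusted p 0.9985, in a fit where 0.00751% of genes were called. The transcript has 40.8% GC, and the libraries with the highest Cdh7 were those that favoured GC-poor genes. Measured as the median log2 deviation of the genes of at least 55.6% GC minus that of genes of at most 44.3% GC, KO2, KO3 and KO8 were at -0.41, -0.42 and -0.34 and WT2 at -0.88, whereas KO5 and KO6 were at 0.36 and 0.0068 and the 5 other WT libraries between 0.059 and 0.51. With the GC offset the log2 fold change was 0.65 (SE 0.11, adjusted p = 0.0172), in a fit that called 0.0372% of genes, and 0.64 (adjusted p = 0.0287) with all 12 libraries, where 0.03% were called.

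In bulk tissue, a different number of cells of a type and a different amount of RNA per cell cannot be told apart. Among markers of other cell types edgeR called 0 genes, and several lists leaned one way. Of the Purkinje cell markers 5 of 7 tested were higher at an unadjusted p under 0.05, the 9 genes summed to between 316 and 573 CPM in KO and between 256 and 364.5 CPM in WT, to 293 CPM in KO4 and to 710 CPM in WT2, and Ppp1r17 and Skor2 did not pass the filter. Bergmann glia and astrocyte markers summed to between 875 and 1326 CPM in KO, to between 633 and 1022 CPM in WT, to 938 CPM in KO4 and to 2094 CPM in WT2. Of these 9 genes 3 were higher at that threshold and 3 had a negative log2 fold change. Of the GABAergic interneuron markers 2 of 4 tested were higher at that threshold, with sums of 84.5 to 123 CPM in KO and 83.8 to 104 CPM in WT, and of the oligodendrocyte lineage markers 3 of 6 tested were lower, with a median log2 fold change of -0.46 and sums of 293 to 313.5 CPM in KO and 302 to 370 CPM in WT. Of these Mbp, of myelin, was lower in every KO library than in every WT library of the comparison. The marked libraries went the other way, with 52.4 CPM in KO4 and 26.0 CPM in WT2, the lowest of all 12. Under the GC offset 3 of the 7 Purkinje, 2 of the 9 glial and 2 of the 4 interneuron markers were higher at that threshold. Of the 6 oligodendrocyte lineage markers 2 were then lower. Among all genes 11.8% were higher and 9.97% lower without the offset, and 7.52% and 8% with it. The part of these markers in the values of Cdh7 was not tested.

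With the GC trend removed, Cdh7 stood at 53.4, 46.1, 44.0, 41.4 and 46.5 CPM in KO libraries 2, 3, 5, 6 and 8 and at 52.8 CPM in KO4. WT libraries 1, 3, 5, 6 and 7 then had 27.8, 31.5, 27.0, 30.8 and 30.9 CPM, and WT2 had 34.5 CPM. On that scale all 6 KO libraries lay above all 6 WT libraries, the marked ones included. The call was lost in 7 of the 10 fits that left out 1 library, with an adjusted p of up to 0.143, and in 6 of 10 with the GC offset (up to 0.116), while in these fits the log2 fold change stayed between 0.83 and 1.01, or between 0.59 and 0.68 with the offset. With KO2, the library with the highest Cdh7, counted as wild type after its genotype tag, the log2 fold change was 0.53 (SE 0.24, adjusted p = 0.792), in a fit that called 0 genes.

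**Figure D2:**
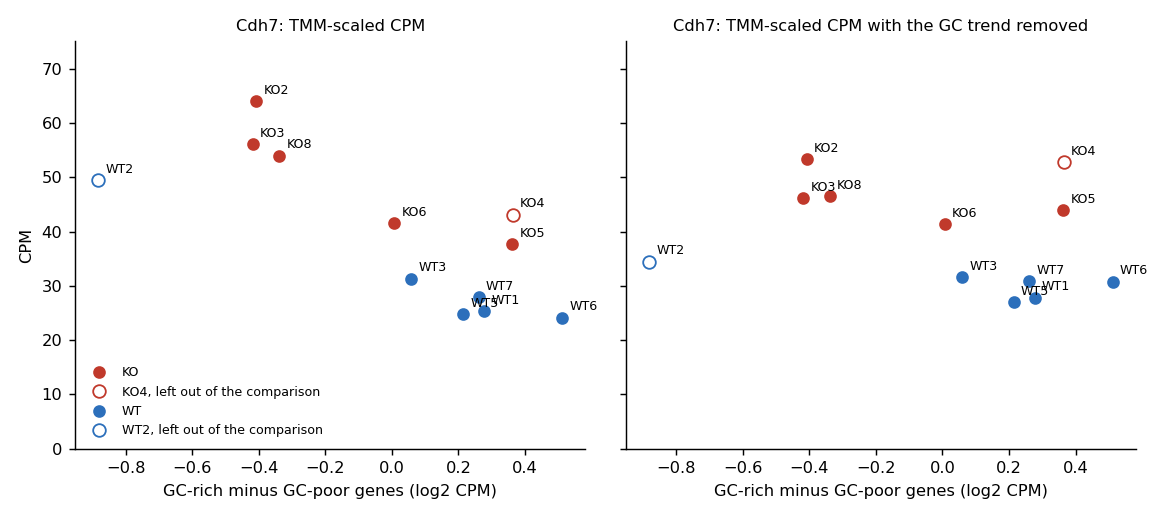
Cdh7 in CPM (vertical axis) against the library's log2 difference between GC-rich and GC-poor genes (horizontal axis), as TMM-scaled CPM (left) and with the GC trend removed (right); each point is 1 library and open circles are KO4 and WT2. On the left WT2, at 49.4 CPM, lies among the KO libraries; on the right every KO library, at 41.4 CPM or more, lies above every WT library, at 34.5 CPM or less.

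Cdh7 has 2 type II relatives further along chromosome 1: Cdh20 (104768529 to 104995481) on one side and Cdh19 (110888326 to 110977584) on the other. Cdh19 was not tested, with at most 0.357 CPM in any library. Cdh20 had 24.1, 24.1, 33.3, 22.6 and 20.0 CPM in KO libraries 2, 3, 5, 6 and 8, against 23.6, 24.7, 20.5, 36.0 and 21.0 CPM in WT libraries 1, 3, 5, 6 and 7. The groups overlapped throughout and each held 1 high library, KO5 and WT6. Its log2 fold change was -0.01 (SE 0.17, adjusted p = 0.974) and turned sign between settings.

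Among the 13 type II cadherins, 12 were tested. Of these 1 was called as higher, against 0.0149% of all genes, and 4 were higher at an unadjusted p under 0.05, against 11.8%. With the GC offset 2 of the 12 were higher at that threshold, against 7.52% of all genes. Summed over the group, KO libraries had 197 ± 20.0 CPM and WT libraries 161 ± 12.4 CPM (SD, n = 5 each). Without Cdh7 the sums were 146 ± 14.97 CPM in KO and 134 ± 10.1 CPM in WT. Cdh7 alone made up 19.5% to 30.1% of the type II counts in KO libraries and 14.97% to 17.7% in WT libraries, without overlap; it was 27.5% in KO4 and 27.1% in WT2. The other 3 that were higher at that threshold without the offset, Cdh6, Cdh9 and Cdh12, are low in this layer. Cdh6, or K-cadherin, had 6.13, 3.74, 2.94, 2.78 and 3.96 CPM in KO libraries 2, 3, 5, 6 and 8 and 1.81, 3.18, 2.43, 1.86 and 1.64 CPM in WT libraries 1, 3, 5, 6 and 7. Its groups overlapped only through WT3, and the log2 fold change was 0.85 (SE 0.30, unadjusted p = 0.0119, adjusted p = 0.15; 0.65 with the GC offset). WT2 had 5.55 CPM and KO4 1.75 CPM, the opposite order.

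Cdh9 had 1.96 ± 1.11 CPM in KO and 0.769 ± 0.523 CPM in WT, with 0 counts in WT6 (log2 fold change 1.27, SE 0.55, adjusted p = 0.197). Cdh12 had 2.94 ± 1.31 CPM in KO and 1.68 ± 0.605 CPM in WT (log2 fold change 0.82, SE 0.37, adjusted p = 0.207; 0.46 with the GC offset). Both are type II cadherins of neurons, and both groups overlapped in each. KO4 and WT2 had 0.487 and 1.42 CPM of Cdh9 and 1.265 and 5.555 CPM of Cdh12, the opposite order. With all 12 libraries the log2 fold change was 0.93 for Cdh9 and 0.22 for Cdh12. Cdh6, Cdh9 and Cdh12 lie on chromosome 15 with Cdh10 and Cdh18, which were at 0.05 (SE 0.22) and -0.62 (SE 0.44) on the log2 fold scale.

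Cdh8, a type II cadherin of sensory and cortical circuits, had 39.3, 26.6, 28.4, 32.8 and 33.0 CPM in KO libraries 2, 3, 5, 6 and 8 and 28.5, 36.7, 23.9, 30.0 and 28.1 CPM in WT libraries 1, 3, 5, 6 and 7. The groups overlapped, with a log2 fold change of 0.13 (SE 0.14) that was -0.07 with the GC offset. Cdh11, known from mesenchyme and bone and also found in neurons, had 23.0 ± 5.87 CPM in KO and 17.5 ± 5.90 CPM in WT (log2 fold change 0.39, SE 0.21, adjusted p = 0.288). Cdh5, the VE-cadherin of endothelial junctions, had 25.3 ± 6.35 CPM in KO and 22.2 ± 2.57 CPM in WT (log2 fold change 0.19, SE 0.16, adjusted p = 0.508). The 8 endothelial and mural marker genes, among which 0 were called and 0 had an unadjusted p under 0.05, summed to 355 ± 47.97 CPM in KO and 336 ± 41.3 CPM in WT. Cdh24 and Cdh22 had 17.4 ± 3.62 and 5.68 ± 1.83 CPM in KO, against 19.6 ± 3.27 and 6.21 ± 1.87 CPM in WT, and neither passed.

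Type I cadherins were led by Cdh2. N-cadherin is the main classical cadherin of neural tissue and holds neural progenitors and migrating granule neurons to their neighbours. KO libraries 2, 3, 5, 6 and 8 had 59.1, 50.2, 53.8, 45.4 and 45.8 CPM, and WT libraries 1, 3, 5, 6 and 7 had 49.8, 56.2, 48.3, 64.7 and 59.4 CPM. The groups overlapped, with WT6 highest and KO6 lowest. The log2 fold change was -0.13 (SE 0.11, adjusted p = 0.52), and with the GC offset -0.26 (unadjusted p = 0.0361, adjusted p = 0.293). KO4 had 56.5 CPM and WT2 45.7 CPM. Cdh4, or R-cadherin, had 26.8 ± 2.92 CPM in KO and 26.9 ± 4.07 CPM in WT, a log2 fold change of -0.0030 (SE 0.13) whose sign turned between settings, for example to 0.14 with the GC offset.

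Cdh1, the E-cadherin of epithelia, ran between 0 CPM in KO8 and 6.15 CPM in KO5 in KO libraries and between 0.360 and 2.99 CPM in WT libraries, and its log2 fold change of 1.31 had an SE of 0.78. KO5 was also the library with the most meningeal and fibroblast marker counts, 1052 CPM in sum, against 445 to 766 CPM in the other 4 KO libraries and 480 to 908 CPM in WT libraries; whether the 2 are linked was not tested. Cdh15, or M-cadherin, known from muscle and from granule neurons, had 0.706 ± 0.296 CPM in KO and 1.07 ± 0.354 CPM in WT (log2 fold change -0.59, SE 0.44). The type I genes summed to 80.9 ± 9.39 CPM in KO and 84.8 ± 8.03 CPM in WT. Of the other numbered cadherins only Cdh13, the T-cadherin that is anchored in the membrane by lipid, was tested, and it had 3.45 ± 0.855 CPM in KO and 3.44 ± 0.279 CPM in WT.

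**Figure D3:**
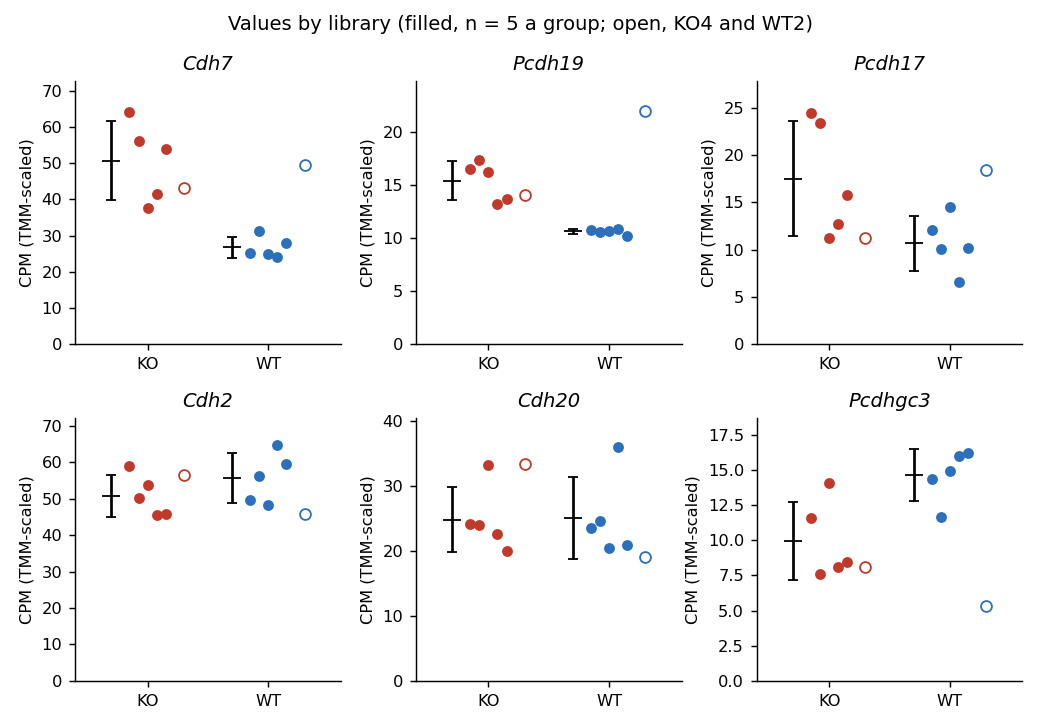
TMM-scaled CPM (vertical axes) of Cdh7, Pcdh19, Pcdh17, Cdh2, Cdh20 and Pcdhgc3 by library, KO left and WT right; filled points are the 5 libraries a group in the comparison, open circles are KO4 and WT2, and bars are means ± SD of the filled points. The filled groups do not overlap in Cdh7 and Pcdh19, and WT2 lies at or above the KO mean for Pcdh19 and Pcdh17 and below every other library for Pcdhgc3.

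Compared per kb of exon that no other gene covers, Pcdhgc3 and Cdh2 led the family in WT, at 8.03 ± 0.9995 and 6.91 ± 0.843 CPM per kb. Cdh20 followed at 6.27 ± 1.57, Cdh24 at 5.61 ± 0.938, Cdh5 at 5.28 ± 0.611 and Pcdh18 at 4.24 ± 1.06 CPM per kb (SD, n = 5 each), and the SD range of each overlapped that of the next in the order. In KO libraries the order was Cdh2 at 6.31 ± 0.713, Cdh20 at 6.19 ± 1.26, Cdh5 at 6.01 ± 1.51, Pcdhgc3 at 5.47 ± 1.53, Pcdh18 at 5.12 ± 0.591 and Cdh7 at 5.05 ± 1.08 CPM per kb, again with the SD ranges of neighbours overlapping. Cdh7 held place 6 in KO and place 11 in WT, where it was at 2.66 ± 0.295 CPM per kb.

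**Figure D4:**
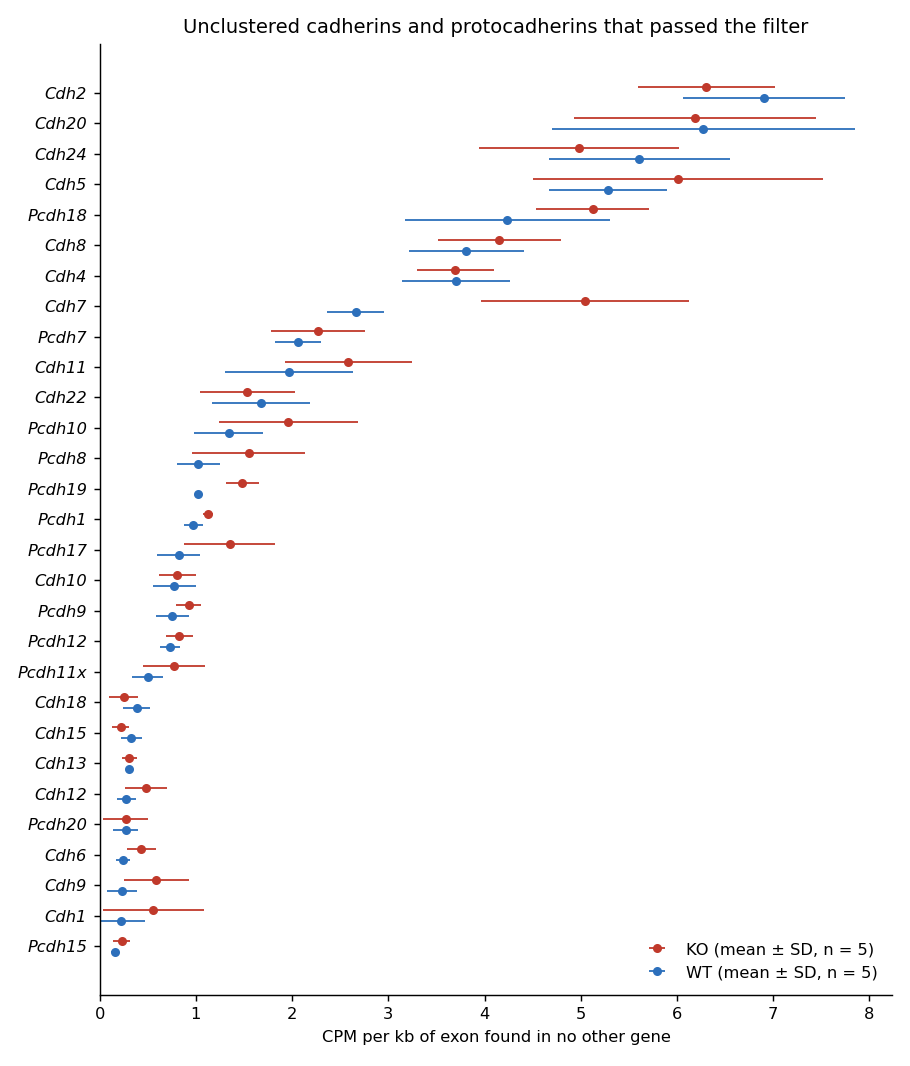
Level per length, in CPM per kb of exon found in no other gene (horizontal axis), of the 29 tested cadherins and protocadherins outside the clusters (vertical axis, ordered by the WT mean); points are means and bars SDs of 5 KO and 5 WT libraries. Cdh7, at 5.05 in KO and 2.66 in WT, is the gene whose SD bars lie farthest apart, and the bars of Pcdh19 and Pcdh1 also stay apart.

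The delta-2 protocadherins were higher in KO by value, and none passed. This group, whose tails carry short conserved motifs, includes genes of axon growth and synapse turnover. All 5 were tested, all 5 had positive log2 fold changes with a median of 0.55, and 4 had an unadjusted p under 0.05, also with the GC offset. Pcdh19, on the X chromosome, is known for an epilepsy in humans that affects mainly females and for complexes with N-cadherin. It had 16.6, 17.4, 16.2, 13.3 and 13.7 CPM in KO libraries 2, 3, 5, 6 and 8, against 10.8, 10.6, 10.7, 10.9 and 10.2 CPM in WT libraries 1, 3, 5, 6 and 7. The groups did not overlap and the WT values were close together. The log2 fold change was 0.54 (SE 0.14, unadjusted p = 0.00123, adjusted p = 0.128; 0.39 with the GC offset), and DESeq2 called it (adjusted p = 0.0189) in a fit that called 3.34% of genes. KO4 had 14.1 CPM and WT2 22.0 CPM, the highest of all 12.

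Pcdh17, which organises actin at growing axon contacts through the WAVE complex, had 24.4, 23.4, 11.2, 12.8 and 15.8 CPM in KO libraries 2, 3, 5, 6 and 8 and 12.1, 10.03, 14.5, 6.56 and 10.1 CPM in WT libraries 1, 3, 5, 6 and 7. KO2 and KO3 stood well above the rest, KO8 lay just above the highest WT library, and KO5 and KO6 lay within the WT range (log2 fold change 0.71, SE 0.23, adjusted p = 0.140; 0.54 with the GC offset). Pcdh10, another partner of that complex, was at 43.7, 42.4, 18.8, 24.3 and 25.2 CPM in the same KO libraries and at 18.7, 28.2, 14.1, 18.9 and 25.4 CPM in the WT libraries. KO2 and KO3 were again the high ones (log2 fold change 0.55, SE 0.23, adjusted p = 0.187). Pcdh8, which in rat neurons draws N-cadherin into the cell, had 6.35 ± 2.42 CPM in KO and 4.21 ± 0.933 CPM in WT (log2 fold change 0.58, SE 0.27, adjusted p = 0.224). Its transcript is GC-rich at 59.3%, and with the GC offset its log2 fold change was 0.74. In KO4 and WT2, Pcdh17 had 11.3 and 18.4 CPM, Pcdh10 14.9 and 42.3 CPM, and Pcdh8 7.59 and 6.15 CPM. A gene annotated on the other strand overlaps each of Pcdh19, Pcdh17, Pcdh10 and Pcdh8, but the exonic bases found in no other gene were 99.5%, 100%, 99.0% and 90.4% of the exonic bases of these 4 genes in that order.

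Of the delta-2 genes with an unadjusted p under 0.05, Pcdh19, Pcdh17 and Pcdh8 have a RefSeq promoter window free of annotated exons, and these are printed so that the letters before the starts can be compared. The windows of Cdh7 and Pcdh10 hold annotated exons and are not shown. Each is the 250 bases before the RefSeq start (GRCm38.p6), read on the gene's strand: Pcdh19 at chrX:133688994-133689243, minus strand, Pcdh17 at chr14:84443313-84443562, plus strand, and Pcdh8 at chr14:79771313-79771562, minus strand. Capitals mark CAGAC, the letters of a SMAD-binding element, and CCAAT, a common promoter element, each on either strand (GTCTG and ATTGG).
Pcdh19: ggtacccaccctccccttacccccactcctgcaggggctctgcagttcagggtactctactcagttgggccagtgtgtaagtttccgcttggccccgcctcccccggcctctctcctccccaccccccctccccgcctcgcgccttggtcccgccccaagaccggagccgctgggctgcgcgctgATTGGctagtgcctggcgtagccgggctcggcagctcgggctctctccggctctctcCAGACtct
Pcdh17: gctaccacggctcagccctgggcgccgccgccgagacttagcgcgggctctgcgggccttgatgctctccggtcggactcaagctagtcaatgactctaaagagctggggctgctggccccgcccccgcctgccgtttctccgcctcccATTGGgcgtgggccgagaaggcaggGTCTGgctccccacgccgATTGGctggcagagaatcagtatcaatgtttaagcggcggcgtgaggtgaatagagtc
Pcdh8: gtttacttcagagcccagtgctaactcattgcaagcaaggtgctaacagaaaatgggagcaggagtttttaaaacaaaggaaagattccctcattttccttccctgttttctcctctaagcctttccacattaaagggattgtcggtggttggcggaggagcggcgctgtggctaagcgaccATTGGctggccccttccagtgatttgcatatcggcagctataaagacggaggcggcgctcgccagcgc
CAGAC occurs once in Pcdh19, starting 8 bases before the start, and once in Pcdh17, at 76 bases, and is not among the letters of Pcdh8. CCAAT lies 65 bases before the start in Pcdh19, 101 and 58 bases in Pcdh17 and 68 bases in Pcdh8; it was marked after the sequences were read. Of 32851 RefSeq promoter windows of this length, 42.2% hold CAGAC and 33.8% hold CCAAT on either strand. CACCTG (or CAGGTG), an E-box known from the repression of the E-cadherin gene and present in 17.2% of windows, and the palindrome GTCTAGAC, present in 0.167%, are in none of the 3. RefSeq windows were at hand for 22 of the members, in 25 entries, of which 11 hold CAGAC, 15 CCAAT and 3 CACCTG.

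Pcdh18 had 27.5 ± 3.17 CPM in KO and 22.7 ± 5.71 CPM in WT (log2 fold change 0.27, SE 0.16, adjusted p = 0.310). Summed, the delta-2 genes had 97.7 ± 21.6 CPM in KO and 69.3 ± 10.7 CPM in WT, with overlap; KO4 had 70.2 CPM and WT2 125.8 CPM. With all 12 libraries the median log2 fold change of the 5 was 0.29. WT2 had the highest delta-2 sum of all 12, and the Purkinje, Bergmann glia and astrocyte marker sums given with Cdh7 were highest there too. The part of these markers in the delta-2 values was not tested. WT2 also favoured GC-poor genes the most, at -0.88 on the measure given with Cdh7. With the GC trend removed, it had 14.8 CPM of Pcdh17, 17.8 of Pcdh19, 38.5 of Pcdh10 and 32.9 of Pcdh18, each lower than before, and 8.30 of Pcdh8, which was higher.

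The 4 delta-1 protocadherins all had positive log2 fold changes, with a median of 0.25, and 0 of 4 had an unadjusted p under 0.05. With all 12 libraries the median was 0.057, and Pcdh7 and Pcdh9 were negative, at -0.16 and -0.076. Pcdh11x, an X-linked gene, had 11.9, 16.1, 3.83, 10.1 and 11.95 CPM in KO libraries 2, 3, 5, 6 and 8, against 7.08, 9.16, 4.86, 4.33 and 9.22 CPM in WT libraries 1, 3, 5, 6 and 7. KO5 lay below every WT library, and the other 4 lay above all of them (log2 fold change 0.62, SE 0.30, adjusted p = 0.236; 0.33 with the GC offset). Of the marked libraries, KO4 had 5.45 CPM and WT2 11.7 CPM. Pcdh1 had 9.92 ± 0.468 CPM in KO and 8.55 ± 0.847 CPM in WT (log2 fold change 0.21, SE 0.15; 0.40 and unadjusted p = 0.0253 with the GC offset). Pcdh7 and Pcdh9 had 19.0 ± 4.08 and 6.28 ± 0.888 CPM in KO, and 17.2 ± 1.99 and 5.13 ± 1.19 CPM in WT. In KO4 and WT2, Pcdh7 had 13.0 and 35.0 CPM and Pcdh9 5.06 and 13.1 CPM. Of the rest, Pcdh12 of blood vessels had 5.01 ± 0.857 CPM in KO and 4.43 ± 0.633 CPM in WT, Pcdh15 of the hair cell's tip link 5.40 ± 2.02 and 3.82 ± 0.936 CPM, and Pcdh20 1.47 ± 1.27 and 1.48 ± 0.703 CPM. None of these 3 had an unadjusted p under 0.05.

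In the clusters, beta genes were mostly positive and gamma genes divided, and 0 of the 30 tested were called. Reads in the constant exons shared by alpha or gamma genes belong to no single gene, and the part of this in the fold changes was not tested. The median GC content was 47.6% in the alpha cluster, 46.6% in the beta cluster and 52.4% in the gamma cluster. The median share of exonic bases that are a gene's own was 46.4% in the alpha cluster, 54.8% in the gamma cluster and 100% in the beta cluster. Alpha and gamma genes also overlap annotated genes on the opposite strand. Of 22 beta genes, 19 were tested, 17 with a positive log2 fold change, with a median of 0.23 (0.15 with the GC offset); 3 had an unadjusted p under 0.05, and 0 with the offset. The beta genes summed to 157, 134, 77.4, 127 and 153 CPM in KO libraries 2, 3, 5, 6 and 8, against 106, 123, 101, 82.4 and 93.7 CPM in WT libraries 1, 3, 5, 6 and 7. KO5 was the lowest of all 10 and the other 4 KO libraries were the highest. KO4 had 104.5 CPM and WT2 147.7 CPM.

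Pcdhb17 was the highest beta gene by CPM. It had 32.1, 24.4, 14.3, 17.8 and 28.4 CPM in KO libraries 2, 3, 5, 6 and 8 and 18.5, 20.7, 16.9, 6.81 and 14.1 CPM in WT libraries 1, 3, 5, 6 and 7, with overlap (log2 fold change 0.59, SE 0.25, adjusted p = 0.192). KO4 had 17.0 CPM and WT2 25.3 CPM. Pcdhb18 had 9.65 ± 3.29 CPM in KO and 6.28 ± 1.44 CPM in WT (log2 fold change 0.62, SE 0.25, adjusted p = 0.172). Pcdhb8 had 5.91 ± 1.15 CPM in KO and 4.03 ± 1.38 CPM in WT (log2 fold change 0.56, SE 0.26, adjusted p = 0.225). Pcdhb22 and Pcdhb20, the next highest, had 13.3 ± 3.22 and 12.3 ± 3.31 CPM in KO and 10.5 ± 1.161 and 11.0 ± 1.42 CPM in WT, and neither had an unadjusted p under 0.05. The beta genes share much of their coding sequence, so reads placed in several of them were not counted for any.

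Of 21 gamma genes 10 were tested, 6 with a negative log2 fold change, and 3 were lower at an unadjusted p under 0.05 both without and with the GC offset. Pcdhgc3, a C-type gene near the constant exons, took the largest share of the cluster's counts. It had 11.6, 7.56, 14.1, 8.12 and 8.42 CPM in KO libraries 2, 3, 5, 6 and 8, against 14.3, 11.7, 14.9, 16.0 and 16.2 CPM in WT libraries 1, 3, 5, 6 and 7. The groups overlapped only through KO5, which stood in the WT range (log2 fold change -0.55, SE 0.18, unadjusted p = 0.00754, adjusted p = 0.140; -0.43 with the GC offset). KO4 had 8.08 CPM and WT2 5.32 CPM, the lowest of all 12. Pcdhgc4, a C-type gene that mouse interneurons need to survive, had 1.80 ± 0.338 CPM in KO and 2.32 ± 0.684 CPM in WT (log2 fold change -0.36, SE 0.32, adjusted p = 0.520), and Pcdhgc5 was not tested.

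Pcdhga7 had 0.195, 0.373, 2.05, 0.514 and 0.360 CPM in KO libraries 2, 3, 5, 6 and 8, against 3.18, 2.12, 0.810, 3.09 and 1.44 CPM in WT libraries 1, 3, 5, 6 and 7. KO5 alone overlapped the WT libraries, and the KO values were near the level of 3 counts (log2 fold change -1.58, SE 0.56, adjusted p = 0.147). Pcdhga11 had 0.934 ± 0.678 CPM in KO and 2.01 ± 0.216 CPM in WT (log2 fold change -1.12, SE 0.43, adjusted p = 0.161), with 26.4% of its exonic bases its own. Pcdhga6 had 1.87 ± 0.991 CPM in KO and 2.52 ± 1.49 CPM in WT. The gamma genes summed to 25.7 ± 4.49 CPM in KO and 35.4 ± 3.40 CPM in WT, with overlap through KO5 and WT3; KO4 had 25.2 CPM and WT2 15.7 CPM.

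Alpha genes were close to the limit. Only 1 of 14 was tested: Pcdhac2, a C-type gene known for spacing serotonergic axons in mice, with 2.25 ± 0.449 CPM in KO and 2.85 ± 1.41 CPM in WT (log2 fold change -0.34, SE 0.36, adjusted p = 0.588). Pcdha3 had 0.219 ± 0.212 CPM in KO and 0.749 ± 0.332 CPM in WT, and Pcdha12 0.228 ± 0.209 and 0.695 ± 0.349 CPM. In Pcdha8, which was not tested, every KO library lay below every WT library: KO libraries 2, 3, 5 and 6 had 0 counts and KO8 had 1, against 3, 3, 4, 6 and 8 counts in WT libraries 1, 3, 5, 6 and 7. The WT counts are at or little above the 3 counts taken as the lowest level, and KO4 and WT2 had 0 counts. The cluster summed to 4.69 ± 1.08 CPM in KO and 6.87 ± 1.45 CPM in WT, with overlap.

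**Figure D5:**
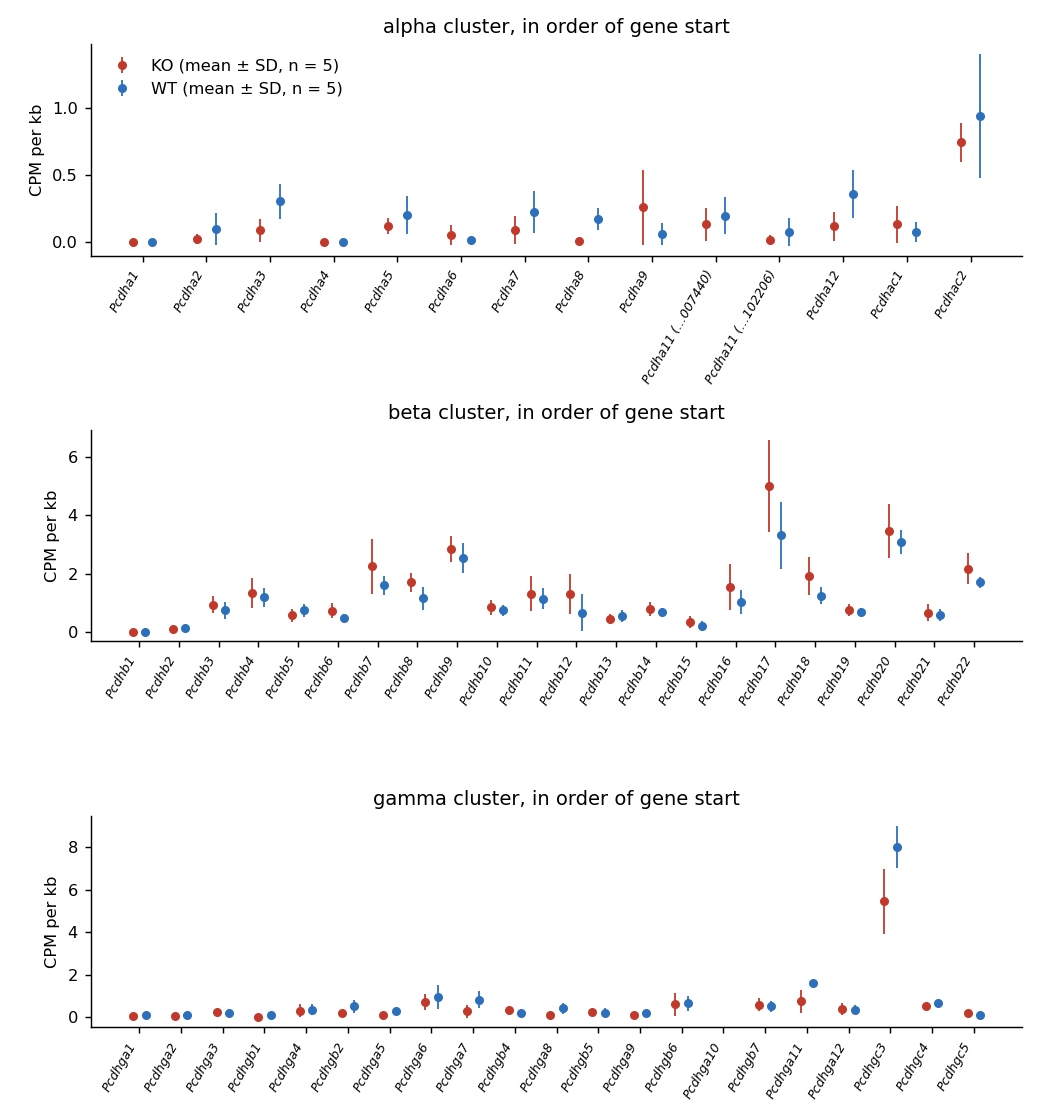
Level per length, in CPM per kb of the gene's own exonic bases (vertical axes), of the alpha, beta and gamma protocadherins in order of gene start; points are means and bars SDs of 5 KO and 5 WT libraries. Pcdhgc3, at 5.47 in KO and 8.03 in WT, and Pcdhb17, at 5.02 in KO and 3.31 in WT, stand above their neighbours, most alpha genes lie near 0, and Pcdhga10 has no point as it has no base of its own.

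Without KO5, edgeR called 12 of 60 members, in a fit that called 22.9% of all genes. The 10 higher were Cdh7, Cdh6, Pcdh10, Pcdh11x, Pcdh17, Pcdh19, Pcdhb7, Pcdhb17, Pcdhb18 and Pcdhb22, and the 2 lower were Pcdhgc3 and Pcdhga7. With the GC offset as well, 4 of 60 were called, in a fit that called 11.6% of genes: Cdh7 (log2 fold change 0.67) and Pcdh17 (0.63) higher, Pcdhgc3 (-0.53) and Pcdhga7 (-2.43) lower. With no filter on low counts, all 10 libraries gave 5 calls among 85 members, in a fit that called 3.49% of genes: Cdh7, Pcdh17, Pcdh10 and Pcdhb17 higher and Pcdhga7 lower.

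Genes that act with cadherins gave 0 calls. Of 21 catenin and junction genes 19 were tested. Their median log2 fold change was 0.18, or 0.091 with all 12 libraries. At an unadjusted p under 0.05 there were 6 higher and 2 lower, where 11.8% and 9.97% of all genes were so. Under the GC offset the median was 0.17, and 6 were higher and 0 lower, where 7.52% and 8% of all genes were so. The smallest p belonged to Ptprm, a receptor phosphatase that binds cadherins, which had 5.26 ± 1.49 CPM in KO and 2.90 ± 0.824 CPM in WT (log2 fold change 0.87, SE 0.27, adjusted p = 0.132), every KO library above every WT library. Afdn, the afadin that links nectins to actin, had 138 ± 31.6 CPM in KO and 98.2 ± 17.3 CPM in WT (log2 fold change 0.49, SE 0.15, adjusted p = 0.132). Its partner Nectin3 had 181 ± 29.7 CPM in KO and 141 ± 4.70 CPM in WT (log2 fold change 0.36, SE 0.11, adjusted p = 0.132). In KO4 and WT2, Ptprm had 4.87 and 2.84 CPM, Afdn 109.5 and 211.8 CPM, and Nectin3 115.1 and 252.5 CPM.

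Of 24 other genes of the cadherin superfamily 13 were tested, 7 with a positive and 6 with a negative log2 fold change and a median of 0.0017. At an unadjusted p under 0.05, where 11.8% of all genes were higher and 9.97% lower, 0 were higher and 3 lower. These were the seven-pass cadherins Celsr3 and Celsr2 and the calsyntenin Clstn1, with log2 fold changes of -0.43, -0.30 and -0.24 (adjusted p = 0.139, 0.171 and 0.187) that were -0.25, -0.11 and -0.07 with the GC offset. Of 24 genes that control or partner protocadherins 22 were tested, with a median of 0.15, and 8 were higher and 4 lower at the same unadjusted threshold. Under the GC offset their median was -0.0035, and 3 were higher and 2 lower, where 7.52% and 8% of all genes were so. Ptk2, the focal adhesion kinase that clustered protocadherins inhibit, had 53.5 ± 7.20 CPM in KO and 69.9 ± 10.2 CPM in WT (log2 fold change -0.39, SE 0.12, adjusted p = 0.133; -0.46 with the GC offset). The cohesin genes Pds5b and Smc3 were at 0.48 and 0.46 on the log2 fold scale (adjusted p = 0.136 and 0.139), and at 0.19 and 0.20 with the offset.

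As for the libraries, WT6 was the shallowest with 7520076 deposited gene counts and KO8 the deepest with 15083086. Skil was lower in every KO library, at 20.9 to 36.7 CPM, against 38.5 to 57.8 CPM in WT (14.0 CPM in KO4, 76.5 in WT2), and the log2 fold change was -0.70 (SE 0.15; adjusted p = 0.124, or 4.5e-04 with the GC offset). Granule lineage markers were all tested and summed to between 5666 and 9468 CPM in KO and between 5403 and 7793 CPM in WT, a sum to which Neurod1 alone gave a mean of 3628 CPM in KO and 2582 CPM in WT. The 11 markers had a median log2 fold change of -0.09, and at an unadjusted p under 0.05 Pax6, Neurod1 and Dcx were higher and Barhl1, Mfap4 and Cntn2 lower. Under the GC offset the median was 0.095. Pax6 was then still higher and Barhl1 and Mfap4 lower at that threshold, and Neurod1, Dcx and Cntn2 no longer passed it.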

How the data were processed

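RNA was sequenced from 12 libraries of laser-captured external granule layer. Per the labels' protocols, the library kit was NEBNext Ultra, which leaves strand unmarked. The authors deposited raw read counts per gene, in the output format of HTSeq. The submitters' processing notes name cutadapt 1.16, STAR 2.5.3a, HTSeq 0.6.1, DESeq2 without a version, and mm10; the annotation is not given in the sources used here. Summary rows were left out: alignments to several places were 64.4% to 67.6% of records, and 6.81% to 8.13% of uniquely placed reads were ambiguous between genes.

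Of the identifiers, 53274 matched GENCODE M21 (GRCm38), 91 members with their version and Pcdh12 without it. Genes were filtered with filterByExpr (minimum count 10), scaled by TMM and tested with the quasi-likelihood test of edgeR (edgeR 4.0.16, limma 3.58.1, R 4.3.3), with p adjusted over all genes tested. Displayed CPM use TMM factors over all 12 libraries, and lengths are exonic bases in no other annotated gene. The GC offset removes each library's spline (5 degrees of freedom) of log2 CPM on transcript GC. Members and lists were chosen with earlier results of these data known. Named members are Cdh7, Cdh2, the 10 with the highest mean CPM, those with an unadjusted p under 0.05, and the 3 highest of each cluster; others named were chosen to account for their group. Of each other list, the 3 smallest p are named. Within a group, all 30 pairs of libraries differed beyond sampling noise (chi-square over its degrees of freedom 6.56 to 91.4). Tested on simulated counts in a fit of 13254 genes, the procedure found 42.4% of 66 genes with a 1.5-fold change, 78.8% of 66 with a 2-fold change and 97% of 66 with a 4-fold change, calls in either direction counted. The simulated counts were drawn gene by gene, with no GC trend and no library effect shared between genes other than depth. The real libraries hold a GC trend, so these shares may not apply to them. Alternatives were other libraries, filters, scalings and tests (DESeq2 1.42.0, limma voom), the replicate number as a block, the GC offset, and each library left out. Leaving out libraries with the GC offset was chosen after seeing the data.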

Additional observations from a re-analysis of the deposited data

Results flagged for a closer look

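Among 52 groups of 5 values, of the named members in KO or WT, 2 held a library far from the others, where chance marks about 1 in 20 groups. Cdh20 had 36.0 CPM in WT6, while the other 4 WT libraries lay between 20.5 and 24.7 CPM. WT6 is the shallowest library, with 7520076 gene counts. Pcdhga7 had 2.05 CPM in KO5, while the other 4 KO libraries lay between 0.195 and 0.514 CPM. KO5 also had the lowest summed beta protocadherins of the 6 KO libraries.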

How the results depend on the processing

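The log2 fold change of Cdh7 was positive in all 32 alternative settings, between 0.53 and 1.01, and passed in 15, with adjusted p from 1.3e-07 to 0.9985. It did not pass with all 12 libraries (0.70), with KO2 counted as wild type (0.53), or in most fits without 1 library, over which it ranged from 0.59 to 1.01, the lower end with the GC offset. Counts of genes called were 3 in the comparison, 1 with all 12 libraries, 0 with KO2 counted as wild type, 449 by DESeq2, 965 without a filter (of 27688), 5 with the GC offset, and 0 to 3102 with each library left out, the highest without KO5. Members called were 1, and 0, 0, 2, 5, 1 and 0 to 12 under the same settings. The cause of these changes was not tested.

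Replicate numbers 3, 5 and 6 occur in both groups, but the libraries that share them did not deviate together (correlations 0.111, -0.047 and 0.0936), and KO3, KO5 and KO6 correlated best with WT7, WT6 and WT1, so the numbers were not taken as pairs. With the replicate number as a block, 0 genes and 0 members were called, also with the GC offset, where Cdh7 was at 0.74 with the block alone and 0.56 with both. Of the named members, Cdh8, Cdh4, Cdh20, Pcdhac2 and Pcdhb20 turned sign in the replicate block fit, to -0.028, 0.069, 0.0011, 0.096 and -0.21. With block and GC offset Cdh8, Cdh4, Pcdhac2 and Pcdhb20 did, to -0.17, 0.15, 0.089 and -0.31.

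The 25 named members tested besides Cdh7 gave 575 other values, of which 530 kept direction and side of the threshold. Of these values 29 turned sign, in 5 of the named members: Cdh4, Cdh20, Cdh8, Pcdhb20 and Pcdhac2. Pcdhac2 was at -0.34 in the comparison and turned sign in both fits with the block. Tested members outside the 25 were not counted here, and some of them turned sign too. For example, Pcdh7 went from 0.14 to -0.16 with all 12 libraries, and Cdh10 from 0.05 to -0.25 with the GC offset. Apart from the block, Cdh4 was at 0.13 with all 12 libraries, 0.14 with the GC offset, 0.18 with both, and -0.070 to 0.056 with each library left out. Cdh20 was at 0.12 with all 12 libraries, 0.0079 with KO2 as wild type, 0.039 by voom, 0.0038 with the GC offset, 0.13 with offset and all 12, and -0.14 to 0.15 with each library left out. Cdh8 was at -0.036 with KO2 as wild type and -0.069 with the GC offset, and Pcdhb20 at -0.0011 with KO2 as wild type and -0.0046 with offset and all 12. Over all exonic bases, the summed alpha and gamma levels in WT were 1.23 and 6.67 CPM per kb.

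Of the alpha and gamma genes 1 of 14 and 10 of 21 passed the filter; the others were not tested. How much of this is depth and how much the small share of exonic bases that are a gene's own was not tested. Counts hold only reads placed once and in 1 gene.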
